A study of Mus musculus with 2 samples.

Results

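The 8 genes described here encode parts of the intrinsic death pathway: the initiator caspases *Casp9* and *Casp2*, the executioner caspase *Casp6*, the apoptosome proteins *Apaf1* and *Cycs*, the released mitochondrial factor *Diablo*, and the inhibitors *Xiap* and *Birc2*. They were chosen by symbol from the 23183 genes of the deposited FPKM files, and all 8 were found. FPKM is the number of fragments scaled to transcript length and to sequencing depth, so levels of different genes can be set side by side.

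Caspases are proteases that are made as inactive precursors. When mitochondria leak cytochrome c, it binds Apaf1, which assembles into the apoptosome and activates caspase-9, and caspase-9 in turn activates executioner caspases. Inhibitor of apoptosis proteins (IAPs) such as Xiap block these proteases through BIR domains, and Diablo (also called Smac) leaves the mitochondria and displaces them. Much of this control acts on proteins that are already present, so transcript levels describe the supply of the parts and not their activity.

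KPR- is an immortalized line from lung cancer of mice with the alleles *K-Ras LSL-G12D/+*, *p53 flox/flox* and *Runx3 flox/FSF*, a Tomato reporter and *FlpERT2*, in which nasal infection with Ad-Cre had activated *K-Ras* and inactivated *p53* and the floxed *Runx3* allele. In KPR- cells (labelled RUNX3 -/-) a Frt-Stop-Frt cassette keeps the remaining *Runx3* allele off, and in KPRrestored cells (labelled RUNX3 -/+) the recombinase FlpERT2 has removed it after 4-hydroxytamoxifen (4-OHT), so that both groups share active *K-Ras* and the loss of *p53*. There was 1 library per condition, with 0 h in the title of the KPR- library, 16 h in that of the KPRrestored library, and 1 μM 4-OHT in the records of both. In the study's text 4-OHT is what turns KPR- into KPRrestored cells, so the records leave unclear whether the 0 h library had been treated. With 1 library on each side, *Runx3*, time and any difference in 4-OHT cannot be told apart. The study states that mRNA sequencing was done to find genes regulated by *Runx3* in these cells.

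With 1 library per condition, no difference could be set against the spread between cultures, and a difference was read only as that of the library labelled KPRrestored from the library labelled KPR-. *Runx3* had 0.348 FPKM in KPR- and 0.349 FPKM in KPRrestored, from about 28 and 29 fragments, so its level does not check the labels. The steps of the low FPKM values placed the depth, on the scale of the deposited values, at about 21.8 M and 22.4 M fragments. All 4 epithelial markers examined were at a mean of at least 1 FPKM, with a summed level of 3867 FPKM in KPR- and 3529 FPKM in KPRrestored. The lung markers *Sftpc*, *Sftpb* and *Scgb1a1* were listed at 0 in both libraries, and *Nkx2-1* and *Ager* were under 1 FPKM, so defining markers of lung epithelium were absent or low. The summed level of 4 fibroblast markers was 12.5 and 4.61 FPKM, that of 4 leukocyte markers 3.08 and 6.79 FPKM, and that of 3 endothelial markers 1.16 and 2.22 FPKM, in KPR- and KPRrestored. Their part in the differences below was not tested.

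None of the 8 genes differed between the libraries by 0.5 or more on the log2 scale. Among the 11231 genes whose mean FPKM was at least 1, 21.4% passed this threshold, 12.1% as higher and 9.29% as lower in KPRrestored. With only 8 genes, the distance of 0 of 8 from this share was not tested. On the scale log2(FPKM + 0.005), the differences of the 8 genes ran from -0.36 (*Xiap*) to 0.46 (*Diablo*), with a median of 0.02 beside 0.01 for the 11231 genes. *Diablo*, *Casp9*, *Cycs* and *Casp6* were higher in KPRrestored, and *Xiap*, *Casp2*, *Apaf1* and *Birc2* were lower. In bulk RNA, fewer cells that express a gene and less RNA per cell cannot be told apart.

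**Figure D1:**
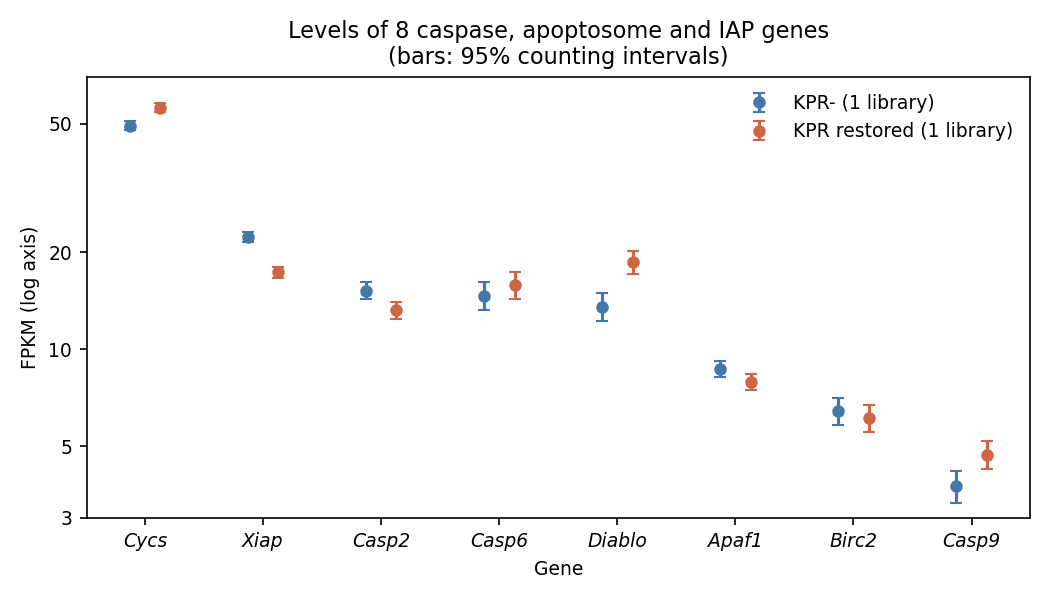
FPKM (log axis) of the 8 genes in the KPR- library and the KPRrestored library, with 95% counting intervals as bars and 1 library per condition. *Cycs* was the highest in both libraries at 49.4 and 56.1 FPKM and *Casp9* the lowest at 3.75 and 4.71 FPKM, and *Diablo* was below *Xiap* in KPR-, while their intervals overlapped in KPRrestored.

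All 8 genes were expressed in both libraries. *Cycs* stood far above the others, with a mean of 52.8 FPKM that exceeded the mean of 84.8% of the 11231 genes. *Casp9* stood lowest, with a mean of 4.23 FPKM that exceeded that of 18.7% of them. In KPR- the order was *Cycs*, *Xiap*, *Casp2*, *Casp6*, *Diablo*, *Apaf1*, *Birc2* and *Casp9*. The counting intervals of the neighbours *Casp2* and *Casp6* overlapped, as did those of *Casp6* and *Diablo*, while every other neighbour in the order was separated. In KPRrestored the order was *Cycs*, *Diablo*, *Xiap*, *Casp6*, *Casp2*, *Apaf1*, *Birc2* and *Casp9*, where *Diablo* overlapped with *Xiap* and *Xiap* with *Casp6*. These intervals cover counting error only, since fragments were estimated from the FPKM steps and transcript lengths.

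*Casp9* (chr4:141793612-141815976, plus strand, GRCm38) encodes the initiator caspase that the apoptosome activates. It had 3.75 FPKM in KPR-, with a counting interval of 3.34 to 4.21, and 4.71 FPKM in KPRrestored, with an interval of 4.26 to 5.21. The log2 difference was 0.33, with a 95% counting interval of 0.11 to 0.55 from about 301 and 389 fragments. The gene was thus higher in KPRrestored by 25.5%, and 20.8% of the 11231 genes had a higher difference. With its shortest coding transcript of 790 bases in place of the longest of 3897 bases, about 47 and 61 fragments remained and the interval ran from -0.24 to 0.92. In the annotation, its exons share 94 bases with *Ctrc* and *Cela2a* on the opposite strand, both listed at 0 in the 2 libraries.

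*Casp2* (chr6:42264985-42282508, plus strand, GRCm38) encodes an initiator caspase that is activated on the PIDDosome, a complex of Pidd1 and Cradd, in place of the apoptosome. Its level was 15.2 FPKM in KPR- and 13.2 FPKM in KPRrestored, and the log2 difference was -0.20 (95% counting interval -0.33 to -0.08). Both genes for its scaffold were at lower levels than *Casp2* itself. *Pidd1* had 5.21 and 2.66 FPKM, a difference of -0.97 with an interval of -1.24 to -0.71. *Cradd* had 2.50 and 2.01 FPKM, a difference of -0.32 with an interval of -0.82 to 0.17. All 3 transcripts were thus lower in KPRrestored, *Pidd1* past the threshold and *Cradd* with an interval that includes 0.

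*Casp6* (chr3:129901425-129914103, plus strand, GRCm38) encodes an executioner caspase that cleaves nuclear lamins. It had 14.6 FPKM in KPR- and 15.8 FPKM in KPRrestored, from about 395 and 439 fragments. The log2 difference was 0.11 and its counting interval ran from -0.09 to 0.31, so no difference was detectable at this depth.

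*Apaf1* (chr10:90989311-91082770, minus strand, GRCm38) encodes the scaffold of the apoptosome. Its 8.67 FPKM in KPR- and 7.90 FPKM in KPRrestored gave a log2 difference of -0.13 (95% counting interval -0.25 to -0.01). With its shortest coding transcript the interval was -0.39 to 0.12 and included 0. *Cycs* (chr6:50562563-50566538, minus strand, GRCm38) encodes cytochrome c, the electron carrier of the respiratory chain that triggers the assembly. It had 49.4 FPKM in KPR- and 56.1 FPKM in KPRrestored, a difference of 0.18 with an interval of 0.11 to 0.25. Of the transcript's 3123 bases, 1094 (35.0%) were at least 95% identical over 100 or more bases to transcripts of 51 other genes, so fragments there may be split between genes and the value is uncertain. *Diablo* had such a match over 1377 of 1576 bases (87.4%), with the genes that overlap it, and the other 6 genes had none.

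*Diablo* (chr5:123509765-123524176, minus strand, GRCm38) encodes the mitochondrial protein that binds IAPs and frees the caspases. It had 13.6 FPKM in KPR-, with a counting interval of 12.3 to 14.95, and 18.6 FPKM in KPRrestored, with an interval of 17.1 to 20.2. The log2 difference of 0.46, with an interval of 0.27 to 0.65 from about 402 and 568 fragments, was the highest of the 8 genes and equals a level higher by 37.2%. Of the 11231 genes, 13.8% had a higher difference, so *Diablo* lay just inside the threshold without standing at the edge of the distribution. Its exons share 1193 bases with *Gm49027* on the same strand and 122 bases with *AC157931.1* on the opposite strand, neither of them among the analysed symbols. They share 1326 bases with *B3gnt4* on the opposite strand, which had 0.0752 and 0.110 FPKM. Whether fragments were assigned by strand is not given in the sources used here, so the value of *Diablo* is uncertain as well.

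*Xiap* (chrX:42059679-42109656, plus strand, GRCm38) encodes the IAP that binds and blocks caspases directly, caspase-9 among them. It had 22.3 FPKM in KPR-, with a counting interval of 21.5 to 23.1, and 17.4 FPKM in KPRrestored, with an interval of 16.7 to 18.0. The log2 difference was -0.36, with an interval of -0.44 to -0.29 from about 3132 and 2508 fragments, and 15.5% of the 11231 genes had a lower difference. With the shortest coding transcript of 487 bases, about 133 and 106 fragments remained and the interval, -0.75 to 0.01, included 0. *Birc2* (chr9:7818227-7837064, minus strand, GRCm38) encodes cIAP1, a ubiquitin ligase of TNF receptor complexes. Its 6.43 FPKM in KPR- and 6.13 FPKM in KPRrestored differed by -0.07, with an interval of -0.27 to 0.12, a difference that was not detectable at this depth.

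The estimated fragments of 13431 genes were compared by an exact two-sided conditional binomial test, adjusted after Benjamini and Hochberg, and 6 of the 8 genes had an adjusted p under 0.05: *Casp9*, *Cycs* and *Diablo* as higher and *Casp2*, *Apaf1* and *Xiap* as lower. This test compares the 2 libraries and not the conditions. Of all genes tested, 57.5% were called, and among the 8386 genes with at least the 690 fragments of *Casp9*, the least covered of the 8, 70.7% were, so 6 of 8 is near the background. With the shortest coding transcript *Casp9*, *Apaf1* and *Xiap* were no longer called. For *Casp2*, *Casp6* and *Cycs* that transcript is the one already used, so this setting could not alter their fragments. *Apaf1* was the nearest to the threshold, with an adjusted p of 0.0465 by this exact test.

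**Figure D2:**
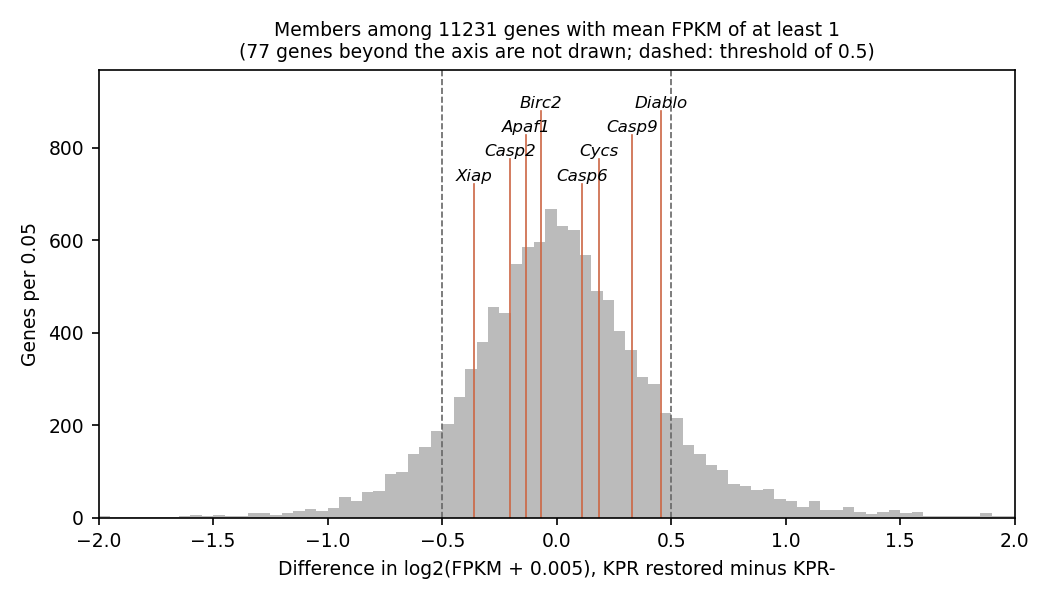
Number of genes per 0.05 of the log2 difference (KPRrestored minus KPR-) among the 11231 genes whose mean FPKM was 1 or more, with the 8 genes as lines and the threshold of 0.5 either way dashed; 77 genes beyond the axis are not drawn. All 8 lines lie between the dashed lines, from *Xiap* at -0.36 to *Diablo* at 0.46.

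Because partners act in pairs, the ratio of their levels was also computed in each library, for pairs chosen with the values known. The values of *Diablo* and *Cycs* are uncertain because of shared sequence, as given above, and so are their ratios. The ratio of *Diablo* to *Xiap*, the antagonist to its target, was 0.609 in KPR- and 1.07 in KPRrestored, a log2 change of 0.82 with an interval of 0.62 to 1.02. The ratio of *Diablo* to *Birc2* went from 2.11 to 3.04, a change of 0.53 with an interval of 0.26 to 0.79. The ratio of *Casp9* to *Xiap*, the protease to its inhibitor, was 0.168 in KPR- and 0.272 in KPRrestored. That of *Casp9* to its scaffold *Apaf1* was 0.433 and 0.596, a change of 0.46 with an interval of 0.21 to 0.71. The ratio of *Casp2* to *Pidd1* went from 2.92 to 4.97, a change of 0.77 with an interval of 0.48 to 1.06. The ratio of *Casp6* to *Casp9*, an executioner to an initiator caspase, was 3.89 and 3.35, and the interval of its change, -0.51 to 0.08, included 0. In both libraries *Apaf1* was more abundant than *Casp9*, and *Cycs* exceeded *Apaf1* by 5.70 times in KPR- and 7.10 times in KPRrestored. The ratio of *Xiap* to *Birc2*, both inhibitors, went from 3.47 to 2.83, a change of -0.29 with an interval of -0.50 to -0.08. The partners differ in transcript length, and the differences followed length, as described below. With the length trend removed, the change was 0.54 for *Diablo* to *Xiap* (interval 0.34 to 0.74), 0.28 for *Casp9* to *Apaf1* (0.03 to 0.52) and 0.50 for *Casp9* to *Xiap* (0.27 to 0.73). The change was 0.46 for *Diablo* to *Birc2* (0.19 to 0.73) and 0.80 for *Casp2* to *Pidd1* (0.51 to 1.09). It was 0.0998 for *Cycs* to *Apaf1* (-0.04 to 0.24) and -0.07 for *Xiap* to *Birc2* (-0.28 to 0.13), intervals that include 0, and -0.31 for *Casp6* to *Casp9* (-0.61 to -0.02), which does not. All intervals of the ratios rest on fragments of the longest transcripts and cover counting error only. With the shortest coding transcripts about 23 and 23 fragments of *Birc2* and 47 and 61 of *Casp9* remained. The intervals would be wider there and were not recomputed.

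**Figure D3:**
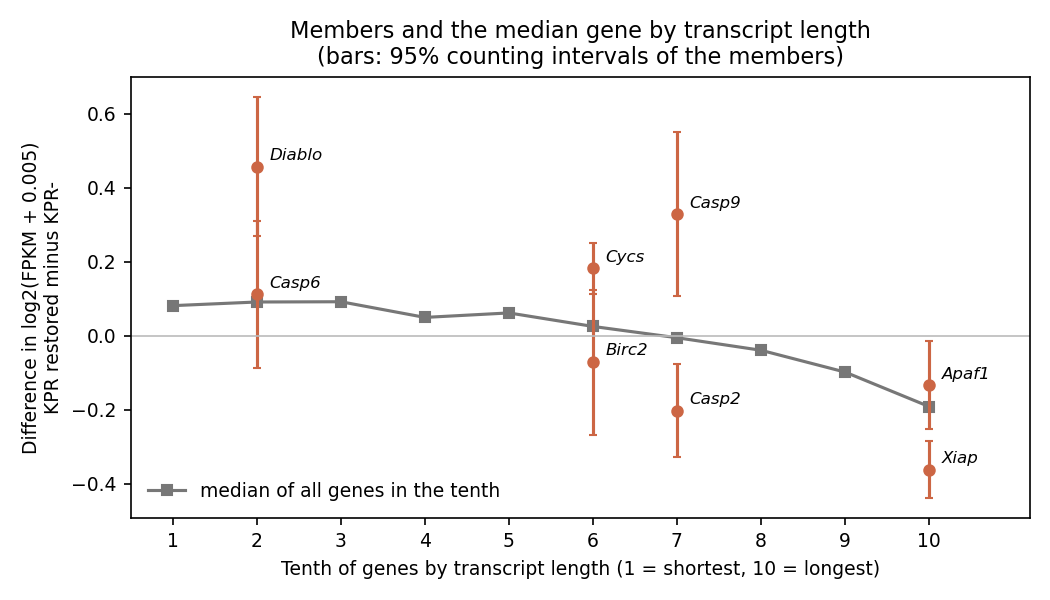
Log2 difference (KPRrestored minus KPR-) against 10 equal groups of genes by transcript length, with the median of all genes in each group as squares and the 8 genes as points with 95% counting intervals. The median gene went from 0.08 in the shortest group to -0.19 in the longest, where *Xiap* and *Apaf1* lie.

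Differences followed transcript length over all genes. The median difference was 0.09 in length group 2 of 10 (from the shortest), which holds *Diablo* and *Casp6*, and -0.19 in length group 10, which holds *Xiap* and *Apaf1* with transcripts of 6670 and 6577 bases. Relative to the median of their length group, *Diablo* was at 0.37, *Casp9* at 0.33, *Xiap* at -0.17 and *Apaf1* at 0.06. The direction of *Apaf1* thus turned and the difference of *Xiap* shrank, while *Casp2* stayed at -0.20. The part of transcript length in the differences was not tested.

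To place the 8 genes in the pathway, 37 further genes in 8 lists were read, taken from general knowledge. Of these, 25 reached a mean of 1 FPKM, here called expressed. The threshold of 0.5 was passed by 2 as higher and 5 as lower in KPRrestored, so that 28% passed beside 21.4% of all expressed genes, and the median of the 25 was -0.15. In the counting test 6 were called as higher and 13 as lower, 76% of the 25 beside 57.5% of all genes tested and 70.7% of those at least as well covered as *Casp9*.

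Among 5 other caspases, 1 was expressed. *Casp8*, the initiator below death receptors, had 35.6 FPKM in KPR- and 53.1 FPKM in KPRrestored, a difference of 0.58 with an interval of 0.49 to 0.66. Its level was above those of *Casp2*, *Casp6* and *Casp9* in both libraries. *Casp1* and *Casp4*, inflammatory caspases, and *Casp12* were each under 1 FPKM, and *Casp14* was listed at 0.

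Of the 8 other BIR-domain genes, 3 were expressed and 1 passed the threshold. *Birc6*, which encodes a giant ubiquitin-conjugating IAP, had 16.4 FPKM in KPR- and 10.4 FPKM in KPRrestored, a difference of -0.66 with an interval of -0.72 to -0.60, and was at -0.47, inside the threshold, with the length trend removed. *Birc5*, which encodes survivin and also serves chromosome segregation in mitosis, had 109 and 86.3 FPKM, a difference of -0.33 with an interval of -0.38 to -0.28. *Birc3*, the close relative of *Birc2*, had 4.32 and 6.06 FPKM, a difference of 0.49 with an interval of 0.24 to 0.73 that lay apart from that of *Birc2*. With the shortest coding transcript the interval of *Birc3* began at -0.07 and included 0. Together with *Xiap*, *Birc5* and *Birc6* were lower in KPRrestored, *Birc3* was higher and *Birc2* did not differ detectably.

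Among 5 genes for IAP antagonists and death factors of mitochondria, 3 were expressed, and the counting test called all 3 as lower. Of the 11136 expressed genes tested, 3531 were called as lower and 3633 as higher. *Endog*, a mitochondrial nuclease, had 5.54 and 3.79 FPKM, a difference of -0.55 with an interval whose upper limit was -0.09, and was at -0.45, inside the threshold, with a pseudocount of 1. *Aifm1*, which encodes apoptosis-inducing factor, had 86.9 and 64.2 FPKM, and *Htra2*, a protease that also displaces IAPs, had 51.6 and 46.7 FPKM, with differences of -0.44 and -0.15. *Diablo* thus differed in direction from the other IAP antagonist that was expressed, *Htra2*, and their counting intervals did not overlap. With the shortest coding transcript the interval of *Htra2*, -0.32 to 0.02, included 0.

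The 4 apoptosome regulators were within the threshold, and the largest difference in size was that of *Hspa8*, a chaperone, at -0.47 with 2068 and 1489 FPKM. It passed the threshold with the length trend removed (-0.52) and with upper-quartile scaling (-0.52). In the cytochrome c group, *Hccs*, which attaches heme to cytochrome c, had 18.0 and 24.2 FPKM, a difference of 0.43 with an interval of 0.30 to 0.56. *Cyc1*, the subunit of complex III that passes electrons to cytochrome c, had 199 and 201 FPKM, a difference of 0.02 with an interval of -0.04 to 0.07. *Cycs* and its heme lyase were thus both higher while *Cyc1* did not differ detectably, and *Cyct*, the testis form, was listed at 0.

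Among 4 chromatin substrates, *Parp1*, a DNA damage sensor cleaved by caspases, had 59.6 FPKM in KPR- and 36.1 FPKM in KPRrestored, a difference of -0.72 with an interval of -0.79 to -0.66. Among 6 signalling partners of Xiap and Birc2, 1 was higher and 1 lower by the threshold. *Traf2*, the adaptor that brings cIAP proteins to TNF receptors, had 17.4 and 25.04 FPKM, a difference of 0.52 with an interval of 0.41 to 0.64. It fell inside the threshold with a pseudocount of 1 (0.498), upper-quartile scaling (0.48) or the length trend removed (0.496). *Map3k14*, which encodes the NF-kappaB inducing kinase that cIAP proteins mark for destruction, had 7.45 and 3.37 FPKM, a difference of -1.14 with an interval of -1.35 to -0.95, the largest in size of the 25 expressed genes.

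**Figure D4:**
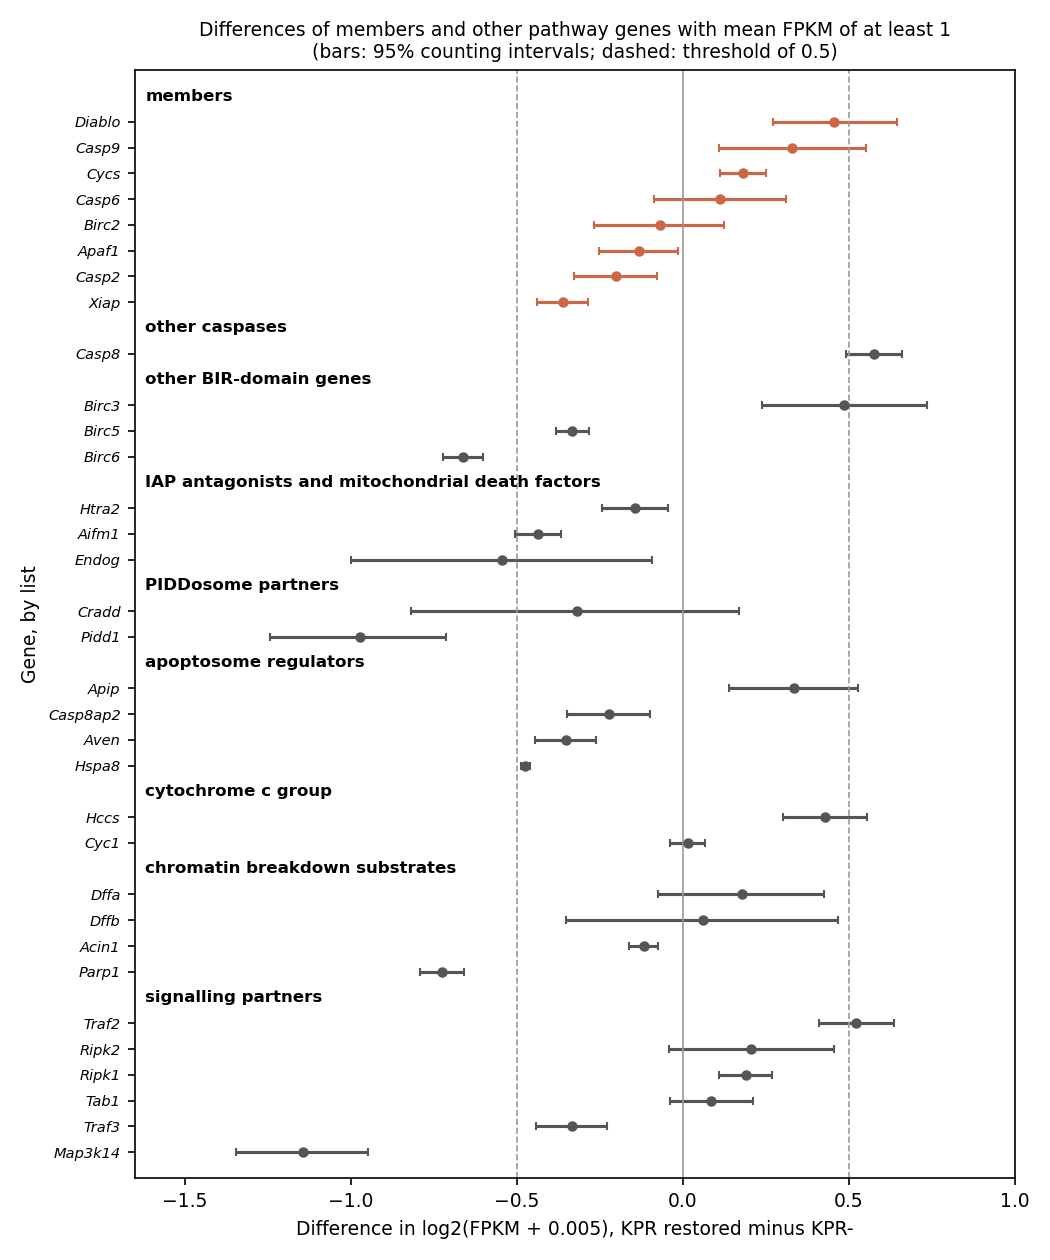
Log2 differences (KPRrestored minus KPR-) with 95% counting intervals for the 8 genes and for 25 further pathway genes whose mean FPKM was 1 or more, grouped by list, with the threshold of 0.5 either way dashed. The 8 genes lie inside the dashed lines, while *Casp8* and *Traf2* lie above them and *Birc6*, *Endog*, *Pidd1*, *Parp1* and *Map3k14* below.

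Promoter sequences were read because *Runx3* encodes a factor that binds TGTGGT. RefSeq windows (GRCm38.p6) of 250 bases before to 50 bases after each transcription start were found for all 8 genes, 11 windows in all, and searched on both strands for TGTGGT (RUNX core), TGACGTCA (cyclic AMP response element, CRE), the NRF1 motif, TTGGCGC and TTCCCGC (E2F) and TGATGCAA (ATF4 composite element). TGTGGT was found in 1 of the 11 windows, that of *Cycs*, at base 44 after the start, where 16.8% of all 32851 windows hold it. TGACGTCA was in the windows of *Cycs* and *Birc2* (1.79% of all windows), the NRF1 motif in those of *Casp2* and *Birc2* (4.60%) and TTCCCGC in that of *Casp2* (4.60%), while TTGGCGC (2.45%) and TGATGCAA (0.895%) were in none of the 11. Stretches around 4 of the matches before the start are shown for *Cycs* and *Birc2*, which share a CRE, and for *Casp2*, the only one of the 8 with an E2F letter match, with the match in capitals. The matches are a description of letters, and no binding was measured.

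Cycs CRE, chr6:50566716-50566753, minus strand: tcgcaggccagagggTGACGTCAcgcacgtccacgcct
Birc2 CRE, chr9:7837070-7837107, minus strand: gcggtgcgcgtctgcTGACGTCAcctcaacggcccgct
Casp2 TTCCCGC, chr6:42264874-42264910, plus strand: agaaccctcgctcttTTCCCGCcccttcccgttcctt
Casp2 NRF1, chr6:42264947-42264984, plus strand: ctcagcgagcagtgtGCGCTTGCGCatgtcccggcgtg

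Counted from the transcription start, the CRE lies at position -169 in *Cycs* and at -35 in *Birc2*, whose differences were 0.18 and -0.07. In *Casp2* the TTCCCGC match shown lies at -96 and the NRF1 match shown at -23. Not shown are a second TTCCCGC match in *Casp2* at -146 and overlapping NRF1 matches in *Birc2* at -113 and -107. A second NRF1 match in *Casp2*, at base 32 after the start, is not shown either.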

How the data were processed

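RNA of 1 KPR- library and 1 KPRrestored library was measured, with groups taken from the sample records. The authors selected poly(A) RNA, made directional libraries, trimmed paired-end reads, mapped them with TopHat (mm10, which is GRCm38, per the submitters' processing notes) and deposited FPKM values estimated with Cufflinks. The study also names a geometric normalization of read counts with edgeR, and whether the deposited FPKM carry it was not settled here. Tool versions and the annotation are not given in the sources used here.

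The difference of a gene was log2(FPKM + 0.005) in KPRrestored minus that in KPR-, taken from the FPKM as deposited, with a threshold of 0.5. The added 0.005 shrinks the differences of the lowest genes, yet genes with few fragments can still differ widely on this scale. Without the filter on mean FPKM, 3193 genes were higher and 3002 lower, against 1358 and 1043 with it. GENCODE M21 lengths were matched to 22156 symbols directly and 646 through older names. Depth and a mean fragment length of 214 bases were fitted to the FPKM steps of 2115 genes of a single transcript length. With the fit, 76.4% of low values in KPR- and 78.6% in KPRrestored lay within 0.1 of a whole fragment. Evenly spread values would give 20% at a fixed setting. The fit was chosen to bring these same values near whole fragments, so these shares are no independent check of it. The FPKM per fragment in KPRrestored was 0.972 times that in KPR-. Fragments of 22612 genes were rounded, using the longest transcript with a RefSeq counterpart (or the longest of all), and the 13431 genes with at least 10 over both libraries entered an exact conditional binomial test with Benjamini-Hochberg adjustment. Intervals are 95% exact Clopper-Pearson limits for differences and exact Poisson limits for levels, with normal limits for ratios between genes. They cover counting error only. Transcripts of other genes were compared using blastn.

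The rule for named genes took all 8 genes, each listed gene with a mean FPKM of at least 1 past the threshold (otherwise the largest difference of its list), and *Casp8* and *Birc5*. 2 further genes of the planned lists are not reported here. Other names were chosen after their values were seen. The 8 genes and all lists were chosen with earlier results of these data known. No genes were named for a like pattern, since 2 libraries give 1 difference per gene. The functions were tested on simulated data. Alternatives were other pseudocounts, scalings, filters, thresholds and transcript lengths. Analyses used scipy 1.17.1, numpy 2.4.6 and pandas 2.3.3 in Python 3.11.15, and plots matplotlib 3.10.9.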

Additional observations from a re-analysis of the deposited data

How the results depend on the processing

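With 1 library per condition, no replicate could be left out and culture variation was not measured. No paired analysis was possible because each condition had 1 library. The 8 genes stayed under the threshold, with 0 higher and 0 lower, under each scaling and the removal of the length trend. The larger pseudocounts and a threshold of 1 could not change these counts. A larger pseudocount only shrinks a difference and cannot turn its direction. The differences of the 8 genes kept their direction under each scaling. With the length trend removed they did so too, except that of *Apaf1*, which was 0.058. *Xiap* was -0.17 with the length trend removed, and the cause was not tested. Over these settings and the pseudocounts, *Diablo* ranged from 0.37 to 0.46 and *Casp9* from 0.27 to 0.33. In the counting test, 6 of the 8 genes were called, 5 with a minimum of 1 estimated fragment where *Apaf1* was lost, and 3 with the shortest coding transcript, where *Casp9*, *Apaf1* and *Xiap* were lost, each with fewer fragments behind it (5028 of all genes called, against 7721). The shortest coding transcript left the fragments of *Casp2*, *Casp6* and *Cycs* unchanged, so it was no check on them. Over all genes whose mean FPKM was at least 1, 1358 were higher and 1043 lower. The counts were 325 and 155 at a threshold of 1, 3193 and 3002 without the filter, and 872 and 641 at a mean FPKM of at least 5. Of the further pathway genes, 2 were higher and 5 lower. With a pseudocount of 1, with upper-quartile scaling or with the length trend removed 1 was higher (*Traf2* was lost), and without the filter 4 were. The lower genes were 4 with a pseudocount of 1 (*Endog* was lost), 6 with upper-quartile scaling (*Hspa8* was added) and 7 without the filter. With the length trend removed 5 were again lower, with *Hspa8* in place of *Birc6*. At a threshold of 1, 0 were higher and 1 lower, and at a mean FPKM of at least 5, 3 were lower. Upper-quartile scaling moved the share of higher calls over all genes from 56.6% to 49.4%.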
